A study of Mus musculus with 3 samples.

Results

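The EGF ligands and ErbB receptors were followed as 10 genes: the 7 ligand genes Areg, Ereg, Hbegf, Tgfa, Btc, Epgn and Nrg1, and the 3 receptor genes Egfr, Erbb2 and Erbb3. They were found as the probes that carry one of these gene names in the scanner files, which gave 22 probes (14 for ligands and 8 for receptors) of 56605 probes in all, and 10 of 24813 genes. The cells were CLDE, a mouse line of dental epithelium from the cervical loop of the incisor, the end at which the tooth keeps growing. Total RNA was taken 72 h after a mock transfection, after transfection with a non-targeting siRNA (siNeg) or after transfection with an siRNA against keratin 15 (siKrt15), and each was hybridised to 1 single-colour Agilent array. The series title poses the question of whether keratin 15 controls proliferation in the outer enamel epithelium. All groups are the same line, grown in serum-free keratinocyte medium, and with 1 array for each group no difference below has a replicate check. For the arrays titled siNeg and siKrt15 the description and treatment fields name the opposite siRNA, so the groups follow the titles, and "siKrt15" below means the array titled siKrt15.

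The ErbB family is a set of receptor tyrosine kinases that pair with each other when a ligand binds. Egfr binds Areg, Ereg, Hbegf, Tgfa, Btc and Epgn, Erbb3 binds the neuregulin Nrg1, and Erbb2 has no known ligand of its own and serves as the preferred partner of the others. The ligands are made as membrane proteins and released by proteases, and the paired receptors signal through Ras and ERK to drive growth of epithelial cells, with several ligands being targets of the same pathway.

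The probes below show what was measured for 2 ligands and for 2 receptors, each a 60-base sequence as the array carries it, 5′ to 3′, with its position on mm9 per the scanner files. Areg is shown because it stood near the top of the ligand differences, Nrg1 as the ligand that did not follow it, and the others as receptors. Exon positions were not analysed here.
Areg probe, chr5:91570090-91570149, plus strand: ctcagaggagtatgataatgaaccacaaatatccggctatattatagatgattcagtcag
Nrg1 probe, chr8:32959791-32959850, minus strand: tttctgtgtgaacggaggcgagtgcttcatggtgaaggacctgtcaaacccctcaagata
Egfr probe, chr11:16783545-16783604, plus strand: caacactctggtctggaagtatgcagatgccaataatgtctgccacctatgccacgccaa
Erbb3 probe, chr10:128006424-128006483, minus strand: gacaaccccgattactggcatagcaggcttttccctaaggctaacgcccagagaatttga

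Epgn, Ereg, Areg and Btc are 4 consecutive protein-coding genes on chromosome 5 in the RefSeq annotation of GRCm38.p6, and the RefSeq table of promoter windows of that build held 6 of the 10 members (Areg, Epgn, Btc, Tgfa, Egfr and Erbb2). The 250 bases before the start of Areg, of its neighbour Epgn and of the receptor gene Egfr are shown because these 3 differed in signal: Areg differed between the arrays, Epgn was not well above background and Egfr was nearly level. Capitals mark matches, on either strand, to the letters searched: the TATA box TATAAA, the cyclic AMP response element TGACGTCA, the AP-1 site TGANTCA, the GC box GGGCGG and the core of ETS sites, GGAAGT.
Areg, chr5:91139349-91139598, plus strand: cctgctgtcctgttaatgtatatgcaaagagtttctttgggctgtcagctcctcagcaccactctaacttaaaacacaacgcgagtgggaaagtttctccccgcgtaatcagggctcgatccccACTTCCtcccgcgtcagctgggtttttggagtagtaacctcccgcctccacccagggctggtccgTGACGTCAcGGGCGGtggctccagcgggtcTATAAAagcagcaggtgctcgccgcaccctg
Epgn, chr5:91027267-91027516, plus strand: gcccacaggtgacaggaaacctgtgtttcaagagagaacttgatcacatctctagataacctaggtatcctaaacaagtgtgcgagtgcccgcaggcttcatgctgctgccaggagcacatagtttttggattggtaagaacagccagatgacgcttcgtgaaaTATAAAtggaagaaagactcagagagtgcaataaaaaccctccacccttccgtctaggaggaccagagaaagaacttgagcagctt
Egfr, chr11:16751953-16752202, plus strand: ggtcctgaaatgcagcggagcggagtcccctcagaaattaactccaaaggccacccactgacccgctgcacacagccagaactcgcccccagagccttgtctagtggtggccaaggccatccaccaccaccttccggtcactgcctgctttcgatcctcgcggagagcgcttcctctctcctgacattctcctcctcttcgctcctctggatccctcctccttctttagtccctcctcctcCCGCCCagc

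In the Areg window the TATAAA letters began 31 bases before the start, GGGCGG 52 bases, TGACGTCA 61 bases and the ETS letters 126 bases before it. Epgn held TATAAA 86 bases before its start, and Egfr held a GC box 9 bases before its start. Among the other windows, Tgfa held GC boxes 126 and 15 bases and Erbb2 the ETS letters 206 bases before the start. Of the 6 member windows, TATAAA was in 2, TGACGTCA in 1, TGANTCA in 0, GGGCGG in 3 and GGAAGT in 2. Over all 32851 windows of that length the shares were 12.4%, 1.55%, 6.75%, 32.7% and 19.7% in the same order, and no search letter overlapped another in the Areg window. The GC content was 57.2% for Areg, 46.8% for Epgn and 60.8% for Egfr, beside a median of 52.4% over all windows. A match describes the letters in the window and was not tested as a binding site.

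Areg, Hbegf and Ereg had more signal in siKrt15 than in both controls, by 1.36-fold to 1.93-fold, and none of these differences reached 2-fold. Signals are given as the scanner's background-subtracted processed signal in arbitrary units, which depends on the probe, so no level is compared between probes. A log2 difference is taken after each array was set to its own 75th percentile, and its error is the SD from the scanner software's error model, which assumes a 10% multiplicative error and holds no spread between cultures. As a second yardstick, the SD of the siNeg to mock difference is given over the genes in the same decile of mean signal. The comparisons of siKrt15 with siNeg and with mock share the siKrt15 array, and are given side by side. In total RNA from a whole culture, fewer cells of a type and less RNA per cell cannot be told apart.

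Areg encodes amphiregulin, a low-affinity Egfr ligand that keratinocytes use as their own growth factor. Its processed signal was 579.9 on mock, 682.1 on siNeg and 1223 on siKrt15. Here siKrt15 stood above both controls, and siNeg above mock. Against siNeg the log2 difference was 0.58 ± 0.20 (error-model SD), which is 1.497-fold, and against mock it was 0.90 ± 0.20, which is 1.865-fold. The siNeg to mock difference was 0.32 ± 0.20, beside an SD of 0.13 over the 1742 genes of similar signal. Of all genes measured, 4.86% were at least as high against siNeg and 2.74% against mock, while 8.66% were at least as high in siNeg against mock, so part of the order of the 3 arrays was already present between the controls.

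Hbegf encodes heparin-binding EGF-like growth factor, which activates Egfr and Erbb4 and has a known part in keratinocyte migration. Its RefSeq probe (NM_010415, chr18:36664738-36664797, minus strand of mm9) gave 152.9 on mock, 169.7 on siNeg and 333.7 on siKrt15. This was the largest siKrt15 to siNeg difference among the members, 0.72 ± 0.20 (error-model SD) or 1.642-fold, and against mock it was 0.95 ± 0.20 or 1.931-fold. Of all genes, 3.45% were at least as high against siNeg and 2.49% against mock. The controls differed by 0.23 ± 0.20, beside an SD of 0.16 over 1742 genes of similar signal. A second Hbegf probe, designed on the cDNA AK052084, went the other way: its signal was 6.61 on mock, 3.323 on siNeg and 3.09 on siKrt15, well above background on mock alone. There mock was roughly 2.31-fold above siKrt15 and 1.52-fold above siNeg. Such a ratio divides the brighter signal by the dim one, after scaling. Where it is larger, the dimmest signal still well above background on that array is used instead. It is a rough guide and not a strict bound. The Hbegf values above rest on the RefSeq probe only.

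Ereg encodes epiregulin, a ligand of Egfr and Erbb4. Its single probe (NM_007950, chr5:91522553-91522612, plus strand of mm9) gave 55.86 on mock, 58.21 on siNeg and 94.99 on siKrt15, so the controls lay close together with siKrt15 above them. The log2 difference was 0.45 ± 0.21 against siNeg (1.362-fold) and 0.59 ± 0.21 against mock (1.504-fold). The controls differed by 0.14 ± 0.21, beside an SD of 0.21 over 1741 genes of similar signal. At least as high were 7.53% of all genes against siNeg and 5.78% against mock.

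**Figure D1:**
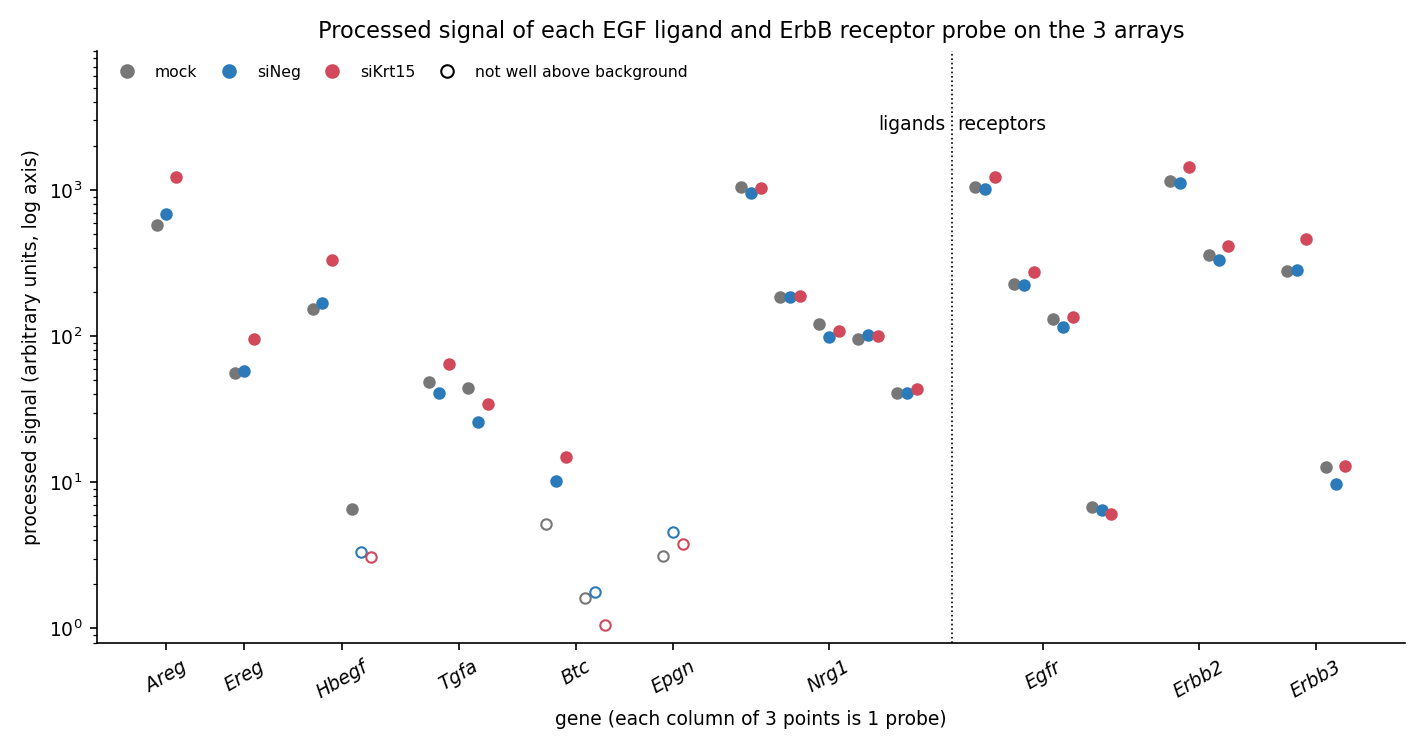
Background-subtracted processed signal (arbitrary units, log axis) of every member probe on the mock, siNeg and siKrt15 arrays, 1 point per array. Open symbols are not well above background, and a reader should see Areg and the RefSeq probe of Hbegf highest on siKrt15 while Egfr and Nrg1 lie close together on all 3 arrays.

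Tgfa encodes transforming growth factor alpha, a high-affinity Egfr ligand, and its 2 probes did not give the same order of arrays. The RefSeq probe (NM_031199, chr6:86224838-86224897, plus strand of mm9) read 48.59 on mock, 40.63 on siNeg and 64.54 on siKrt15, a difference of 0.41 against siNeg and 0.23 against mock. The probe for the transcript ENSMUST00000193710 (chr6:86159850-86159908, plus strand) read 44.13 on mock, 25.89 on siNeg and 34.28 on siKrt15, with 0.15 against siNeg and -0.54 against mock. Both probes were lowest on siNeg. Averaged, Tgfa was 0.28 ± 0.21 against siNeg and -0.16 ± 0.21 against mock, and siNeg against mock was -0.43 ± 0.21, or 1.35-fold lower. In that control comparison 2.16% of all genes were at least as low, and the SD over genes of similar signal was 0.21.

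Btc encodes betacellulin, a ligand of Egfr and Erbb4. One of its probes (NM_007568) read 5.151 on mock, where it was not well above background, 10.19 on siNeg and 14.82 on siKrt15. The siKrt15 to siNeg difference was 0.28 ± 0.27, about the size of its error. Against mock no measured difference can be given, because the mock signal was not told from background. The plain ratio of the scaled signals was 2.54-fold for siKrt15 and 2.10-fold for siNeg over mock, which is not a lower bound. The other probe on the same transcript was not well above background on any array (1.617, 1.769 and 1.054 on mock, siNeg and siKrt15). Epgn encodes epigen, an Egfr ligand of low affinity, and its probe was not well above background either, at 3.132, 4.545 and 3.772 in the same order.

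Nrg1 encodes neuregulin 1, whose EGF-like domain binds Erbb3 and Erbb4, and it was the one ligand that lay below 0 against siNeg. Its brightest probe, on NM_178591, read 1057 on mock, 952.6 on siNeg and 1029 on siKrt15. That printed above, on the same transcript, read 120.6, 98.89 and 107.9. The 5 probes, designed on 3 transcript models, gave -0.29 to -0.13 against siNeg and -0.34 to -0.08 against mock. All 5 thus had the same sign in both comparisons. The gene mean was -0.19 ± 0.21 against siNeg and -0.18 ± 0.21 against mock, and the controls differed by 0.02 ± 0.21. Relative to the median of all genes (-0.08 against siNeg and -0.06 against mock), Nrg1 lay at -0.11 in both comparisons, and 35.7% and 36.7% of all genes were at least as low.

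Among the receptors, Egfr and Erbb2 were nearly level across the arrays, and Erbb3 was somewhat higher in siKrt15 on 1 probe. Egfr, the receptor shared by most of these ligands, had 4 probes. The brightest (NM_207655) read 1057 on mock, 1021 on siNeg and 1231 on siKrt15, and its differences were 0.01 against siNeg and 0.04 against mock, because the arrays' 75th percentiles (191.1, 180.4 and 216.0) differ in the same order. The probe printed above for transcript NM_007912 gave 132.2, 116.1 and 135.9 on mock, siNeg and siKrt15, with -0.03 and -0.14. A dim probe on the cDNA AK049452, at 6.81, 6.441 and 6.057, gave -0.35 against siNeg with an error-model SD of 0.40 and carries most of the gene mean of -0.09 ± 0.25 against siNeg and -0.09 ± 0.25 against mock.

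Erbb2, the partner receptor, read 1154 on mock, 1113 on siNeg and 1435 on siKrt15 with its brighter probe. The second probe read 361.0, 331.8 and 416.0. The gene mean was 0.09 ± 0.20 against siNeg and 0.08 ± 0.20 against mock, well inside the error, and the controls differed by less than 0.01. Erbb3, whose kinase domain is weak and which signals through its partners, had 2 probes that differed in size against siNeg and in sign against mock. The probe for ENSMUST00000082059 (chr10:128004749-128004808, minus strand of mm9) read 281.3, 285.1 and 461.3 on mock, siNeg and siKrt15, with 0.43 ± 0.20 against siNeg and 0.54 ± 0.20 against mock. The NM_010153 probe printed above read 12.75, 9.771 and 12.96, with 0.15 against siNeg and -0.15 against mock. The mean was 0.29 ± 0.24 against siNeg, which 13.0% of all genes reached, and 0.19 ± 0.23 against mock.

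Counted against a threshold, 0 of the 9 members measured lay past 2-fold in siKrt15 against siNeg, where 1.7% of 17123 genes were higher and 2% lower. At 1.5-fold, Hbegf was the 1 member of 9 that was higher and none was lower, against 4.8% of all genes higher and 8.63% lower. Areg, at 1.497-fold, lay just under that threshold. In siKrt15 against mock, 0 of 8 passed 2-fold (2.18% of 17131 genes higher, 1.24% lower). At 1.5-fold, 3 of 8 were higher (Hbegf, Areg and Ereg, the last at 1.504-fold just over the threshold) and 0 were lower, against 5.83% and 7.69% of all genes. In siNeg against mock, 0 of 8 passed 2-fold in either direction, with 0.356% of 17418 genes higher and 0.0459% lower.

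**Figure D2:**
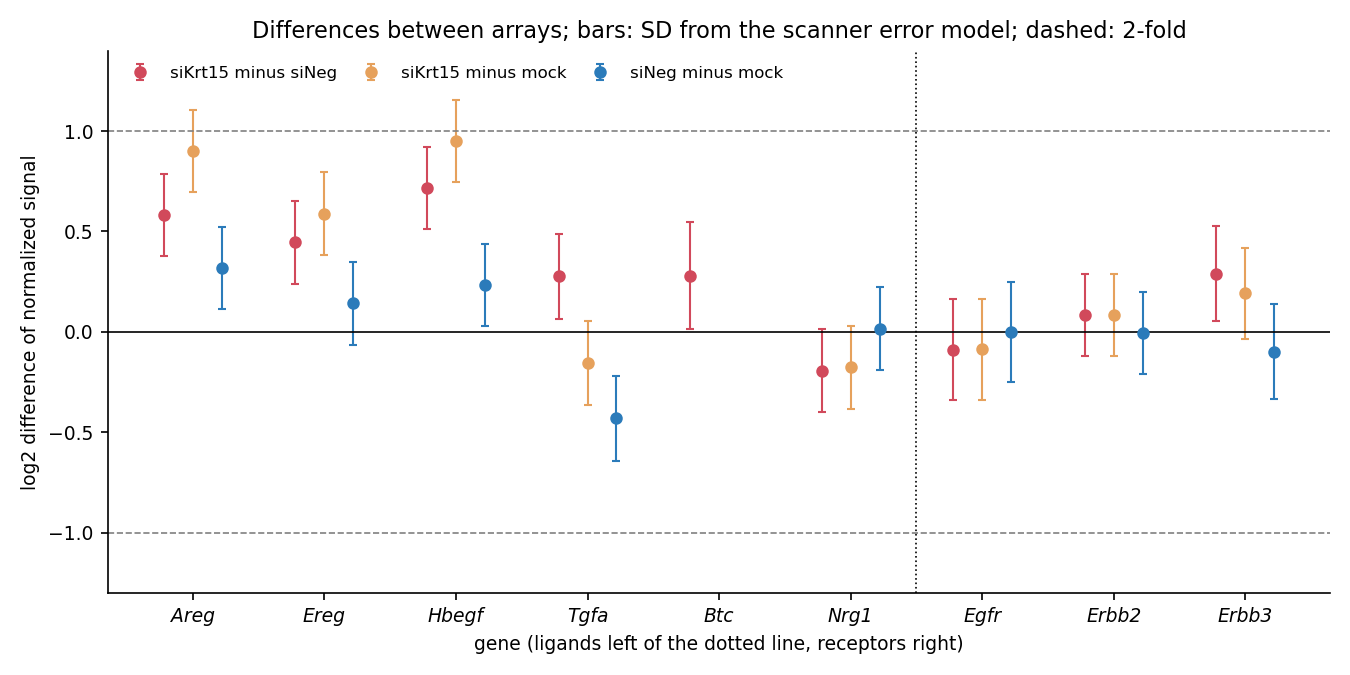
Normalized log2 differences of the measured member genes for siKrt15 against siNeg, siKrt15 against mock and siNeg against mock, with bars for the scanner's error-model SD, 1 array per group. Hbegf, Areg and Ereg lie highest among the siKrt15 differences, whereas Egfr, Erbb2 and Nrg1 stay within about their bars of 0.

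Set against the receptors, the ligands had the higher median in all 3 comparisons. In siKrt15 against siNeg the median was 0.36 over 6 ligands and 0.09 over 3 receptors, a gap of 0.28, and 5 of 6 ligands lay above 0. In siKrt15 against mock it was 0.59 over 5 ligands and 0.08 over 3 receptors, a gap of 0.51, and 3 of 5 ligands lay above 0. Between the controls it was 0.14 over 5 ligands and near 0 (-0.004) over 3 receptors, a gap of 0.15. The spread among the ligands was wider than the gap: from -0.19 (Nrg1) to 0.72 (Hbegf) against siNeg, and from -0.18 to 0.95 against mock. The receptors ran from -0.09 (Egfr) to 0.29 (Erbb3) against siNeg, so Erbb3 lay slightly above Tgfa and Btc, by far less than the errors. Relative to the median of all genes, Hbegf lay at 0.79 and 1.01, Areg at 0.66 and 0.96 and Ereg at 0.53 and 0.65 against siNeg and mock. Against siNeg the gap was 0.05 with normexp background correction, 0.09 without the filter on dim probes, 0.43 with quantile normalization and 0.44 with the signal trend removed. Against mock it was 0.24 with normexp and 0.01 without the filter. The setting without that filter admits probes at background, among them the second Hbegf probe.

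**Figure D3:**
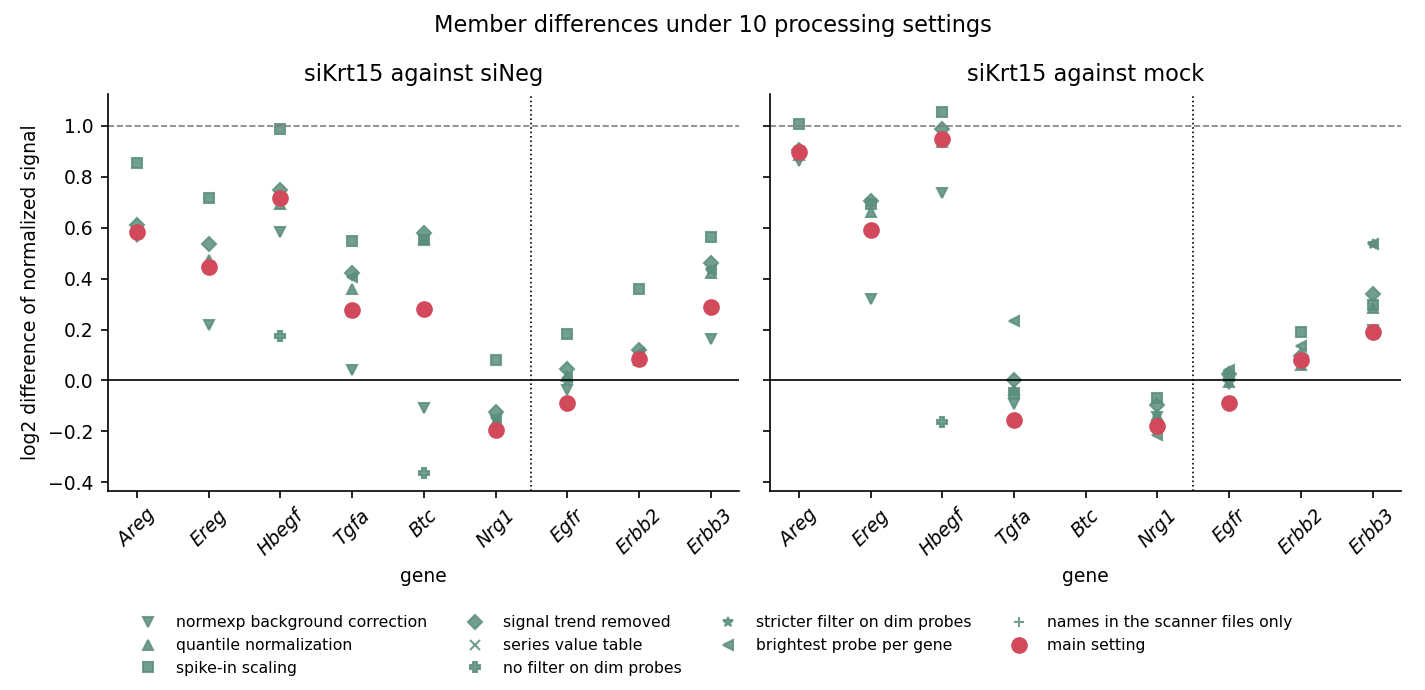
Normalized log2 differences of each member under the 10 processing settings, for siKrt15 against siNeg and siKrt15 against mock, with the main setting marked. Areg stays between 0.56 and 0.85 against siNeg, whereas Hbegf extends down to 0.18 against siNeg and -0.16 against mock when its dim second probe is averaged in.

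Areg was above 0 against both controls under all 10 settings, from 0.56 to 0.85 against siNeg and from 0.86 to 1.01 against mock. Ereg was too, from 0.22 to 0.72 and from 0.32 to 0.71. Areg and Ereg have 1 probe each, so the settings for dim probes, for the brightest probe and for gene names all returned the main value. The deposited table holds nearly the same signal. Those settings are thus no separate check here, nor for other genes with 1 probe below. Hbegf was above 0 under all 10 settings against siNeg and under 9 of 10 against mock, its exception being the setting that averages in the dim cDNA probe. Tgfa was above 0 under all 10 settings against siNeg (0.04 to 0.55) but below 0 under 8 of 10 against mock. Btc against siNeg changed sign, with 7 of 9 settings above 0. Erbb2 and Erbb3 were above 0 against both controls under all 10 settings, Egfr changed sign in both, and Nrg1 was above 0 only with spike-in scaling against siNeg (0.08).

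The 3 genes whose profile over the 3 arrays was nearest to that of Hbegf, the member with the largest siKrt15 to siNeg difference, were Epb41l3, Svop and Socs1. Their Euclidean distances from it, over normalized log2 signals centred on each gene's mean, were 0.006, 0.008 and 0.019 among 13429 genes. With only 3 arrays, 64 genes lay within a distance of 0.1, so the order among them carries little. Socs1 encodes an inhibitor of cytokine signalling and Epb41l3 a membrane skeleton protein.

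The other genes of the pathway were taken as lists and are given by counts and medians beside those of all genes. Of the remaining ligands and receptors of the family (Egf, Nrg2, Nrg3, Nrg4 and Erbb4), 4 of 5 were measured and Nrg3 was not well above background. Their median was -0.13 against siNeg and -0.02 against mock, with 0 past 2-fold. Nrg4, an Erbb4 ligand, was the largest difference at -0.62 ± 0.32 against siNeg, yet -0.01 against mock. Between the controls it was 0.61 higher on siNeg. It rests on 2 dim probes, at 9.49, 15.24 and 12.33 and at 5.542, 7.181 and 5.384 on mock, siNeg and siKrt15. Egf stood at 0.14 against siNeg and 0.18 against mock, its 2 measured probes at 0.35 and -0.065 against siNeg. Nrg2 and the receptor Erbb4 both stood at -0.13 against siNeg. Erbb4 was measured only on the probe for ENSMUST00000119142, at 851.4, 856.9 and 939.1 on mock, siNeg and siKrt15. Its RefSeq probe (NM_010154) was not well above background on any array, at 1.08, 1.236 and 1.057. Egf, Erbb4 and Nrg2 changed sign with the processing in siKrt15 against siNeg.

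Of the genes for shedding and trafficking of the ligands, all 11 were measured, with a median of 0.03 against siNeg and 0.08 against mock. Adam12, a membrane metalloprotease that can release Hbegf, was the only one past 2-fold, at 1.56 ± 0.28 against siNeg and 1.44 against mock. Over all genes, 1.7% were at least 2-fold higher against siNeg and 2.18% against mock. Its brighter probe read 38.98 on mock, 55.15 on siNeg and 119.8 on siKrt15, and the dimmer one, not well above background on mock, 3.889, 5.345 and 30.67. The value against mock comes from the brighter probe alone. Against siNeg that probe gave 0.86, which is under 2-fold. The mean against siNeg thus rests largely on the dim probe, and over the settings it ran from 0.40 to 1.83. The controls differed by 0.58 on the brighter probe. Frmd8 (0.30 against siNeg, 0.04 against mock) and Rhbdf1 (0.29 and 0.16), both partners in carrying the protease Adam17 to the surface, followed.

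Among adaptors and signal relay, 20 of 20 genes were measured, the median was -0.09 against siNeg and -0.05 against mock, and 0 passed 2-fold in either. The lowest against siNeg was Map2k2, a kinase of the Ras and ERK cascade, at -0.47 (-0.68 against mock), and the highest was the adaptor Gab2 at 0.41 (0.74). Map2k2 was below 0 and Gab2 above 0 under all 10 settings in both comparisons. The brightest Map2k2 probe (NM_023138), at 4941, 4592 and 4268 on mock, siNeg and siKrt15, gave -0.37 against siNeg and -0.39 against mock. Its dimmer probes on ENSMUST00000128937 and ENSMUST00000123888 gave -0.46 and -0.58 against siNeg, and -0.96 and -0.68 against mock. For siNeg against mock these dimmer probes gave -0.50 and -0.10. Gab2 had 1 dim probe, at 23.2, 27.54 and 43.78 on mock, siNeg and siKrt15. Its difference ran from 0.05 to 0.68 against siNeg and from 0.19 to 0.93 against mock, and siNeg stood 0.33 above mock.

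The inhibitors of the receptors and the pathway had 20 of 21 genes measured, Spry4 being not well above background. Their median was -0.01 against siNeg and 0.04 against mock, near that of all genes, yet 2 passed 2-fold upward in each comparison (1.7% and 2.18% of all genes) and 0 downward. Dusp6, the phosphatase that acts on ERK, read 1134 on mock, 985.4 on siNeg and 2598 on siKrt15, which gave 1.14 ± 0.20 against siNeg and 1.02 ± 0.20 against mock. Spry1, a Sprouty inhibitor of Ras and ERK signalling, read 460.8, 382.2 and 975.3, which gave 1.09 and 0.91. Lrig1, which lowers ErbB receptor levels at the membrane and marks epithelial stem cells, read 434.8, 470.6 and 1100 on its brighter probe, and its mean was 0.88 against siNeg and 1.16 against mock. All 3 were above 0 under the 10 settings in both comparisons.

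Of the transcripts known to respond to the receptors, 15 of 15 were measured, with medians of 0.23 against siNeg and 0.08 against mock. None passed 2-fold, and at 1.5-fold 5 were higher and 2 lower against siNeg, and 3 higher and 2 lower against mock. Over all genes measured, 4.8% were higher and 8.63% lower by that threshold against siNeg, and 5.83% and 7.69% against mock. Etv4, an ETS factor, read 664.5 on mock, 593.2 on siNeg and 1351 on siKrt15 with its brighter probe, and its mean was 0.93 against siNeg and 0.86 against mock. The AP-1 subunit gene Fos read 266.5, 265.9 and 564.2, or 0.82 and 0.90. Etv5, the relative of Etv4, read 434.5, 388.5 and 777.7, or 0.74 and 0.66. In siNeg against mock, 0 genes of these 5 pathway lists passed 2-fold, and the list medians lay between -0.07 and 0.07.

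**Figure D4:**
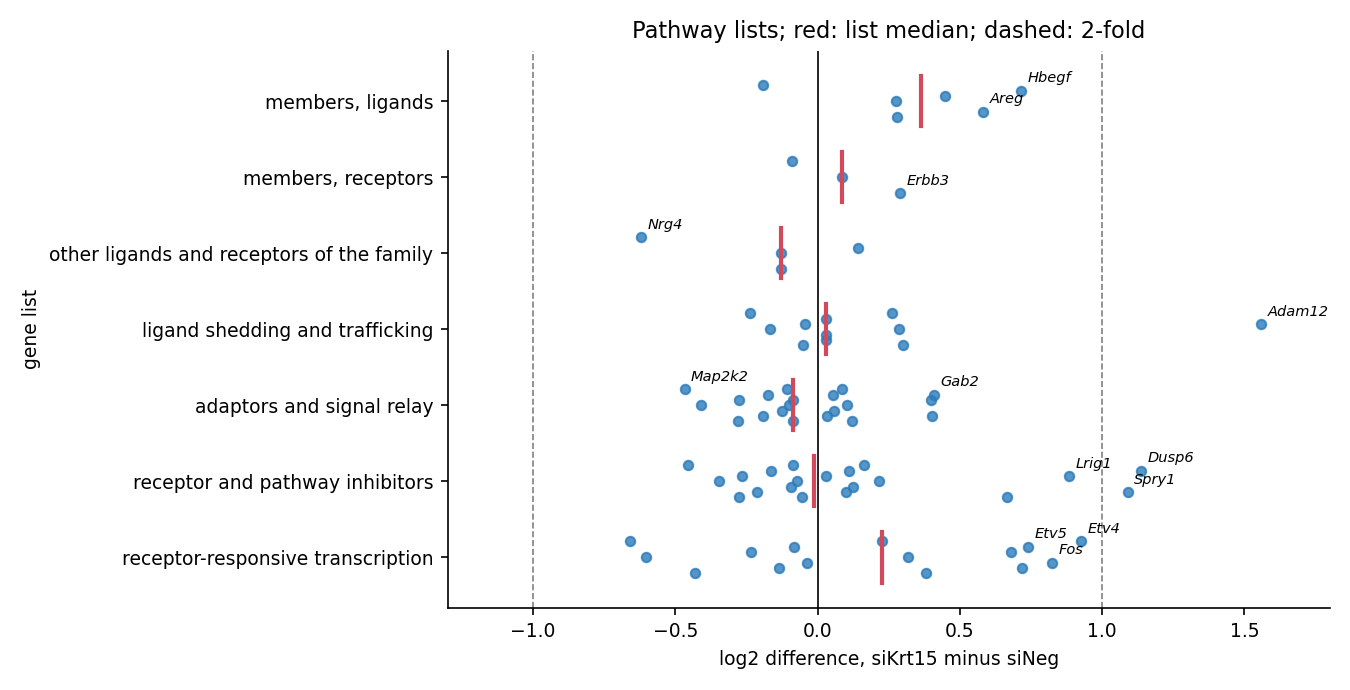
Normalized log2 differences of siKrt15 against siNeg (horizontal axis) for each measured gene of the members and the 5 pathway lists, 1 point per gene, with the list median in red, the 2-fold threshold dashed and vertical offsets only to separate points. Adam12, Dusp6 and Spry1 lie beyond 2-fold and every other point within it.

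The targeted gene gave the check of the labels: Krt15 signal was 2638 on mock, 1647 on siNeg and 267.2 on siKrt15, which goes with the titles and against the description and treatment fields. After scaling, its log2 difference was -2.885 against siNeg and -3.481 against mock. Krt15 also differed between the controls, at -0.596 for siNeg against mock, beside an SD of 0.113 over genes of similar signal. In that control comparison 0.821% of all genes were at least as low. All 8 epithelial markers were above background on each array, with a summed signal of 242400 to 287800 and a median of -0.15 against siNeg and -0.05 against mock. Among them, chosen after their values were seen, Cldn1 (0.83 against siNeg, 0.61 against mock) and Epcam (0.53 and 0.60) were higher on siKrt15 and Trp63 (-0.32 and -0.56) was lower, each with 1 sign under all 10 settings. Cldn1 had 1 dim probe, at 19.78, 15.97 and 34.03 on mock, siNeg and siKrt15. Its difference ran from 0.103 to 1.103 against siNeg and from 0.095 to 0.813 against mock. Trp63 probes on the cDNAs AK048623 and AK138305 gave -0.94 and -0.93 against mock, and -0.57 and -0.59 for siNeg against mock. Those on NM_011641 and NM_001127261 gave -0.289 and -0.075 against mock. Of 8 dental epithelial markers, 5 were measured in siKrt15 against both controls, and the enamel genes Ambn and Enam were not well above background on any array. The enamel gene Amelx was so on mock and siNeg alone, on 1 dim probe at 4.827, 4.998 and 1.302 on mock, siNeg and siKrt15. Of 9 mesenchymal markers 5 were measured, with summed signals of 318.6, 290.1 and 288.0 on mock, siNeg and siKrt15 and a median of -0.80 against siNeg and -0.38 against mock. Pdgfrb and Lum were not well above background, Vim was so on mock alone and Thy1 on siNeg alone. The median is the value of Col3a1, from 1 dim probe at 5.583, 7.02 and 4.84 on mock, siNeg and siKrt15, with an error-model SD of 0.41 against siNeg. Over the settings the list median ran from -0.80 to -0.24 against siNeg and from -0.60 to -0.14 against mock. Within that list Dcn stood at -1.07 and -1.20 and Col1a1, over 3 probes, at 0.86 and 0.98 (both chosen after their values were seen), and each kept its sign under all 10 settings. Of 4 endothelial markers 1 was measured, and of 6 blood and immune markers 5, the latter with a median of -0.28 against each control. The part of these markers in the ligand differences was not tested. Between 67.25% and 69.18% of non-control spots were well above background, 0 spots were saturated, and all arrays were on 1 slide. Precision is limited by how few arrays there are.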

How the data were processed

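Per the labels' protocols, total RNA was labelled with Cy3, and scanned images were read with Agilent Feature Extraction 11.5.1.1, per the submitters' processing notes. The deposited scanner files hold a linear intensity for each spot, the processed signal, from which background was already subtracted, with probe positions on mm9 per the file headers. The authors' deposited value table holds log2 values that followed the log2 processed signal minus a constant for each array, within 0.01 for 93.76%, 94.02% and 92.37% of probes on mock, siNeg and siKrt15. Its medians are -3.52, -3.51 and -3.72. It was used as an alternative.

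From the scanner files, control and outlier spots were left out, each array's 75th percentile was subtracted on the log2 scale, and spots of a probe were averaged (pandas 2.3.3, numpy 2.4.6). A probe counted in a comparison when it was well above background and unsaturated on both arrays, and differences of a gene's probes were averaged. Names were updated through the RefSeq table of GRCm38.p6 (32994 probes by accession, 10224 by symbol, 520 by synonym, 12867 kept the file's name). The procedure was tested on simulated data. No p-value was computed, since each group has 1 array.

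All 10 members are described. Of each pathway list, up to 3 measured genes with the largest siKrt15 to siNeg difference are named, and 3 genes nearest in profile to the member with the largest such difference. One list gene that this rule names is not reported here. The members and lists were chosen with earlier results of these data known. Alternatives were normexp background correction (limma 3.58.1, offset 50) with log2 scaling, quantile normalization, spike-in scaling on 8 probes, removal of a signal trend (statsmodels 0.14.6), the deposited table, no filter or a stricter filter on dim probes, the brightest probe per gene and file names only. Groups were taken from the titles.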

Additional observations from a re-analysis of the deposited data

How the results depend on the processing

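The count of members well above background on all arrays was 8, and 10 with the scanner's looser flag. No member measured in a comparison passed 2-fold in the main setting, while Btc was not measured against mock and Epgn in no comparison. At 1.5-fold the count was 1 against siNeg and 3 against mock, and with spike-in scaling 2 passed 2-fold against mock, Areg (1.01) and Hbegf (1.06). The ligand median minus the receptor median was 0.28 against siNeg, with 0.048 under normexp, 0.089 without the filter on dim probes, 0.435 under quantile normalization and 0.441 with the trend removed. It was 0.51 against mock, with 0.24 under normexp and 0.009 without the filter, and 0.15 for siNeg against mock, with 0.076 under normexp. The cause was not tested. Over all members and settings, 16 values against siNeg, 6 against mock and 3 for siNeg against mock moved by at least their error-model SD, and 64, 66 and 69 moved by less. Spike-in scaling moved the median of all genes from -0.08 to 0.19 against siNeg, from -0.06 to 0.04 against mock and from 0.02 to -0.14 for siNeg against mock.

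Counts over all genes depended on the scaling. Against siNeg, 291 genes were higher and 342 lower by 2-fold, and the split was 82 to 23 with normexp, 385 to 145 with quantile normalization, 571 to 118 with spike-ins, 420 to 121 with the trend removed, 477 to 2070 without the filter and 233 to 85 with the stricter one. Against mock, 374 and 213 became 102 and 24, 477 and 103, 475 and 138, 544 and 95, 646 and 1549, and 302 and 90 in the same order. For siNeg against mock, 62 and 8 became 0 and 0, 53 and 10, 25 and 21, 45 and 8, 836 and 413, and 4 and 0. No replicate could be left out, and differences between cultures cannot be told apart from the treatment. No paired analysis was possible because each group has 1 array.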

Other observations

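Among the transcripts known to respond to the receptors, some members chosen here after their values were seen went opposite ways. Egr1, an immediate early zinc finger factor, read 104.4 on mock, 79.66 on siNeg and 156.9 on siKrt15, a log2 difference of 0.72 against siNeg and 0.41 against mock. Epha2, an ephrin receptor, read 2008, 1768 and 3396, or 0.68 and 0.58. Dusp4, a phosphatase of the inhibitor list, stood at 0.66 and 0.65. Jun, the AP-1 partner of Fos, read 2577 on mock, 2450 on siNeg and 1859 on siKrt15, or -0.66 against siNeg and -0.65 against mock. Plaur, the urokinase receptor, read 2261, 2356 and 1859, or -0.60 and -0.46, and Vegfa, an endothelial growth factor, stood at -0.43 and -0.64. Under all 10 settings Egr1, Epha2 and Dusp4 were above 0 and Jun, Plaur and Vegfa below 0 against both controls. The siNeg to mock differences were -0.31 for Egr1, -0.10 for Epha2, 0.01 for Jun and 0.14 for Plaur.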
